A study of Mus musculus with 6 samples.

Results

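The protein kinase C genes examined here were Prkca, Prkcb, Prkcd, Prkce, Prkch, Prkci, Prkcq and Prkcz, which are 8 of the 37273 annotated genes of the mouse genome mm9. They were taken from a list of isoform genes, not from their read counts. For each gene the reads over the gene body, the promoter and, in Prkcz, an internal promoter were counted in 6 sequencing libraries. Chromatin came from the hippocampus of C57/BL6 mice aged 6 months. In the fear-conditioned group (FC), mice received a foot-shock in a context in 2 training sessions. The control group (CON) was exposed to the context only. Tissue was taken 1 h after a memory test, and each group gave 3 libraries, an immunoprecipitation with an antibody to histone H4 acetylated at lysine 5 (H4K5ac-ChIP), a mock immunoprecipitation with IgG (IgG-IP) and unprecipitated genomic DNA (input). The question of the design was how H4K5ac differs between FC and CON. No other allele, drug or treatment is given for either group. Whole hippocampus holds several cell types, so that fewer cells carrying the mark and less of the mark per cell cannot be told apart.

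Protein kinases C are serine and threonine kinases that pass on signals from receptors which activate phospholipase C. Conventional isoforms (Prkca, Prkcb) need calcium and diacylglycerol, a second class (Prkcd, Prkce, Prkch, Prkcq) needs diacylglycerol alone, and atypical isoforms (Prkci, Prkcz) need neither. In the hippocampus the family is known for its part in synaptic plasticity. An internal promoter of Prkcz is known to give, in brain, the transcript of PKMζ, a form without the regulatory domain that is active without a second messenger. Which of the annotated internal starts gives that transcript was not settled here.

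The starts that the results below turn on are shown as the 200 bases upstream of each transcription start site (TSS), read from mm9 and written 5′ to 3′ on the strand of the gene. Prkcz is shown at the TSS of the gene and at the 1 of its internal starts that held a motif of the list, and Prkcd and Prkcq because they had the highest and the lowest promoter density of the 8 genes in CON. Capitals mark matches on either strand to the cyclic AMP response element (CRE, TGACGTCA), its core (TGACG), the GC box (GGGCGG), the TATA box (TATAAA) and the E box (CACGTG).
Prkcz, TSS of the gene, minus strand, chr4:154735471-154735670: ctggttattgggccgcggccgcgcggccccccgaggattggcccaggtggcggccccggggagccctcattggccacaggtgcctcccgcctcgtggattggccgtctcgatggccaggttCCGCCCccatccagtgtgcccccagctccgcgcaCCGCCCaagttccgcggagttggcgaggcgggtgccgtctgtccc
Prkcz, internal TSS of transcript Prkcz-002, minus strand, chr4:154719882-154720081: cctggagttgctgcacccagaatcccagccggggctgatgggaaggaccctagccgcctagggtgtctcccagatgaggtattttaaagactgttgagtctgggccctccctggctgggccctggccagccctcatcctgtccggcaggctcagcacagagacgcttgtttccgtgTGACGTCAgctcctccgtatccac
Prkcd, TSS of the gene, minus strand, chr14:31439397-31439596: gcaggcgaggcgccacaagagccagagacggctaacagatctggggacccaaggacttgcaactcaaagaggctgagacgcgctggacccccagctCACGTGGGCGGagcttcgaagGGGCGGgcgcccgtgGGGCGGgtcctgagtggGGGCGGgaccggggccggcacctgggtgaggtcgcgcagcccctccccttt
Prkcq, TSS of the gene, plus strand, chr2:11093540-11093739: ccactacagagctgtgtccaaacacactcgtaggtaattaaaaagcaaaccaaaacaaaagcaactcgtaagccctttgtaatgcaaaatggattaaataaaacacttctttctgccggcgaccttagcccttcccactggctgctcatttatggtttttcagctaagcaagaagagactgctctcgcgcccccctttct

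Prkcz carried GC boxes at -79 and -45 bp from the TSS of the gene, in sequence that was 73.5% G and C with 21 CpG. The internal TSS of Prkcz-002 lies 15.6 kb further into the gene. It had a CRE at -24 bp, which holds the core on both strands, and the shown stretch had 7 CpG and no GC box. The other internal starts, those of Prkcz-004 and of Prkcz-006, on which the internal promoter results below rest, held no motif of the list. Prkcd had GC boxes at -99, -83, -68 and -51 bp, the first of which overlaps an E box at -104 bp. None of these letters occurred in the stretch of Prkcq, which was 44.5% G and C. From 250 bases before to 50 after the TSS, a CRE was present in 2.33% of 22362 promoters of protein-coding genes, its core in 23.3%, a GC box in 43.4%, a TATA box in 13.4% and an E box in 7.79%. In that window the gene TSSs of Prkca, Prkce, Prkch and Prkci also held GC boxes, and that of Prkcb held no motif of the list. Prkcd had a TATA box at -242 bp and Prkce the CRE core at -186 bp, while no gene TSS of the 8 genes held a CRE. The protein-coding transcripts of Prkcb start 546 and 558 bp further into the gene, so that the sequence at their own starts was not searched. All motifs named here are matches of letters and not binding sites.

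Depth ranged from 14549689 reads in FC IgG-IP to 45673239 in FC input, with 31605738 for FC and 35962226 for CON H4K5ac-ChIP. Density is given as RPKM, the reads divided by the length in kb and by the depth of the library in units of 1000000 reads. Values in parentheses are 95% intervals, exact Poisson for a density and exact (Clopper-Pearson) binomial for a log2 ratio of depth-scaled reads. They cover counting error only. With 1 library per group and kind there was no replicate, no test was made, and each ratio compares libraries, not conditions. Across 24434 gene bodies, the input ratio of FC over CON followed GC content (Spearman's rho 0.803), more than that of H4K5ac-ChIP (0.341) or IgG-IP (-0.114), so it is printed beside the main comparisons of FC with CON. As a check of the tissue, 3 of 6 marker genes of hippocampal neurons had H4K5ac-ChIP at least 2-fold over IgG-IP in FC (33.6% of all genes tested) and 2 in CON (25.4%), Camk2b (log2 ratio 1.33 and 1.34) among them. Of the glial markers, 0 of 3 astrocyte, 2 of 3 oligodendrocyte and 1 of 2 microglia genes did so in FC, and 1 of each list in CON. Of 6 genes of other tissues, 1 did so in FC (Mb, 1.36) and 0 in CON. The median log2 ratio of the 4 brain cell lists ran from 0.58 to 1.24 in FC and from 0.65 to 0.85 in CON. It was 0.42 and 0.54 for the genes of other tissues and 0.69 and 0.59 for all genes tested. Of the neuronal genes, Neurod6 (-0.81 and -0.71) and Snap25 (0.33 and 0.27) lay below the median of all genes. Over input the neuronal list had medians of 0.12 and 0.35, below those of all genes tested, 0.15 and 0.45. The oligodendrocyte and microglia lists lay above these in both groups, and the genes of other tissues had -0.36 and -0.04.

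Prkca and Prkcb, the conventional isoforms, carried H4K5ac over their gene bodies at 2-fold the IgG-IP level or more. Prkca spans 410.5 kb (chr11:107794701-108205242, minus strand). Its gene body had 1.07 RPKM (1.05 to 1.09) in FC and 1.00 (0.987 to 1.02) in CON H4K5ac-ChIP, compared with 0.366 and 0.410 in IgG-IP and 0.579 and 0.460 in input. The H4K5ac density was higher than that of 92.7% of all genes in FC and 92.9% in CON. Prkcb spans 345.7 kb (chr7:129432265-129777916, plus strand). It had 0.868 RPKM (0.850 to 0.885) in FC and 0.826 (0.810 to 0.842) in CON, beside 0.389 and 0.406 in IgG-IP and 0.590 and 0.453 in input. Both genes thus stood above both control libraries in both groups, Prkca further than Prkcb.

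The isoforms of the diacylglycerol-only class differed widely among themselves. Prkce (chr17:86567125-87057259, plus strand) is the longest of the 8 genes with 490.1 kb. It had 0.990 RPKM (0.974 to 1.01) in FC and 0.960 (0.945 to 0.974) in CON H4K5ac-ChIP, with 0.390 and 0.402 in IgG-IP and 0.647 and 0.470 in input. Prkcd (chr14:31408542-31439396, minus strand) is the shortest with 30.9 kb. Its gene body had 0.735 RPKM (0.682 to 0.791) in FC and 0.691 (0.643 to 0.742) in CON, and the input density in FC, 0.716 RPKM, was about the same, while input in CON had 0.434 and IgG-IP 0.408 and 0.397. For Prkcd the height above the control thus depended on the control library in FC.

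The remaining isoforms of this class were close to the controls. Prkch, a form known from epithelia and lymphocytes, spans 193.4 kb (chr12:74685783-74879172, plus strand). It had 0.630 RPKM (0.610 to 0.650) in FC and 0.565 (0.547 to 0.582) in CON, beside 0.438 and 0.442 in IgG-IP and 0.619 and 0.478 in input. Prkcq, known above all for its part in T cell activation, spans 129.1 kb (chr2:11093740-11222853, plus strand). It had 0.532 RPKM (0.510 to 0.555) in FC and 0.426 (0.407 to 0.445) in CON, beside 0.423 and 0.429 in IgG-IP and 0.503 and 0.457 in input. In CON all 3 libraries of Prkcq thus lay within 0.426 to 0.457 RPKM.

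Prkcz, an atypical isoform, had the densest gene body of the 8 genes in FC and one level with that of Prkca in CON, and Prkci, the other atypical isoform, a middle one. Prkcz spans 101.2 kb (chr4:154634238-154735470, minus strand). It had 1.13 RPKM (1.09 to 1.17) in FC and 1.00 (0.972 to 1.04) in CON H4K5ac-ChIP, with 0.358 and 0.369 in IgG-IP and 0.674 and 0.430 in input. Prkci (chr3:30894669-30951663, plus strand) had 0.730 RPKM (0.691 to 0.771) in FC and 0.739 (0.702 to 0.777) in CON, with 0.374 and 0.410 in IgG-IP and 0.510 and 0.441 in input. From highest to lowest the FC order was Prkcz, Prkca, Prkce, Prkcb, Prkcd, Prkci, Prkch and Prkcq. In FC the intervals of neighbours in that order overlapped for Prkcd and Prkci only. In CON these exchanged places and overlapped again, and the interval of Prkcz overlapped those of Prkca and Prkce as well.

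**Figure D1:**
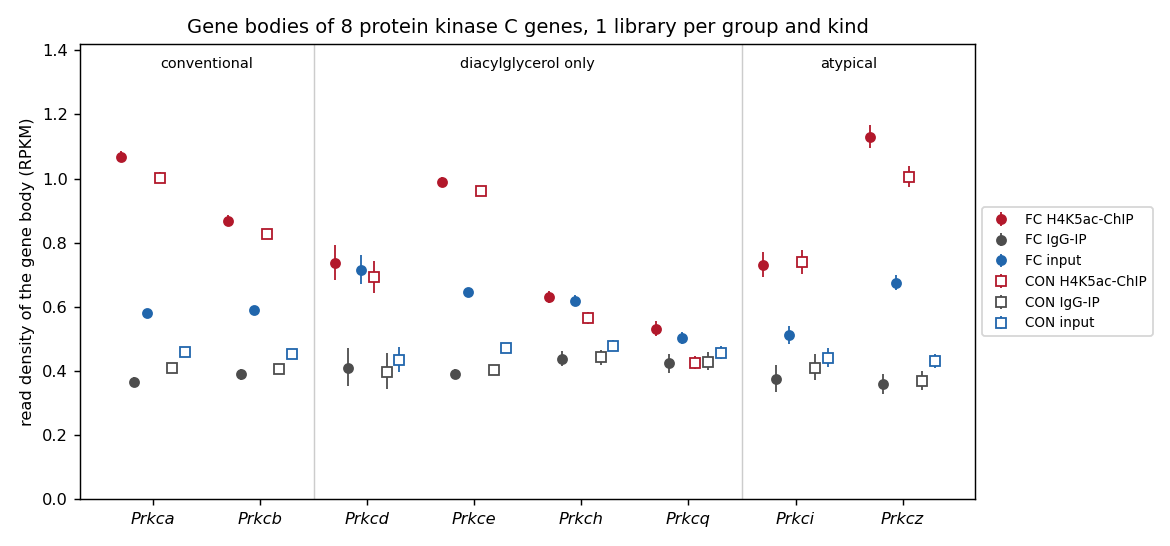
Read density of the gene bodies in RPKM (vertical axis) for the 8 genes by class, with 1 point per library (filled circles FC, open squares CON) and exact Poisson 95% intervals as bars. H4K5ac-ChIP (red) of Prkca, Prkcb, Prkce and Prkcz lies at 0.826 RPKM or above in both groups, while every IgG-IP point (grey) lies between 0.358 and 0.442 RPKM.

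Measured against IgG-IP, the control of the study, H4K5ac stood at least 2-fold higher (a log2 ratio of 1 or more) over the gene bodies of Prkca, Prkcb, Prkce and Prkcz. That is 4 of 8 genes in each group, compared with 33.6% of 23839 genes in FC and 25.4% of 23999 in CON with at least 20 reads in both libraries together. For Prkcz the log2 ratio came to 1.66 (1.53 to 1.79) in FC, with 1.44 (1.32 to 1.57) in CON. For Prkca it was 1.55 (1.48 to 1.61) and 1.29 (1.23 to 1.35). It was 1.34 and 1.254 for Prkce and 1.16 and 1.02 for Prkcb. Below the 2-fold line lay Prkci (0.96 and 0.85), Prkcd (0.85 and 0.80), Prkch (0.53 and 0.35) and Prkcq (0.33 and -0.01). The median was 1.06 in FC and 0.94 in CON over the 8 genes and 0.69 and 0.59 over all genes tested. Prkch and Prkcq lay below that median in both groups. Taken relative to it, with the all-gene median subtracted, 0 of 8 genes reached 2-fold in either group (8.73% of all genes tested in FC and 5.596% in CON), and Prkcz came closest with 0.97 in FC and 0.85 in CON.

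With input as the control, Prkcz, Prkca, Prkce and Prkcb again had the highest ratios in both groups, but in FC all of them were below 2-fold. In FC 0 of 8 genes were at least 2-fold over input (5.03% of all genes tested), and in CON 3 of 8 were (15.1%), namely Prkcz with a log2 ratio of 1.22 (1.14 to 1.31), Prkca with 1.13 (1.08 to 1.17) and Prkce with 1.03 (0.99 to 1.07). The FC ratios of these genes were 0.75, 0.88 and 0.61. Prkcd had 0.67 in CON and 0.04 in FC, the widest gap of the 8 genes. The input density of Prkcd itself was 0.716 RPKM in FC and 0.434 in CON. Its gene body has the highest GC content of the 8, 52.4%.

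Between FC and CON the H4K5ac-ChIP density of the gene bodies differed little. A gene was counted as higher or lower at a log2 ratio of FC over CON of at least 0.322 in size. No gene reached it, 0 of 8 being higher in FC (12.7% of 24434 genes tested) and 0 of 8 lower (5.69%). Prkcq came closest, with 0.321 (0.23 to 0.41), and it passed that size, at 0.344, when only reads with a mapping score of at least 20 were counted. Its ratio was higher than that of 87.3% of genes, while its IgG-IP and input ratios were -0.02 and 0.14. Prkcz had 0.17 (0.10 to 0.24), Prkch 0.16 (0.09 to 0.22), Prkca 0.09 (0.06 to 0.13), Prkcd 0.09 (-0.06 to 0.24), Prkcb 0.07 (0.03 to 0.11), Prkce 0.04 (0.01 to 0.08) and Prkci -0.02 (-0.12 to 0.09). The median of all genes tested was 0.04, which the intervals of Prkcb, Prkcd, Prkce and Prkci included. Genes tested needed 20 H4K5ac-ChIP reads in both libraries together, while each of these 8 held at least 717 in each library. The shares of all genes are thus not matched to the 8 genes in counting error.

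Input differed more between the groups than H4K5ac at 7 of these 8 genes. By the same measure its density was higher in FC for 6 of 8 gene bodies (49.1% of all genes tested) and lower for 0 of 8 (12.3%), with log2 ratios from 0.14 at Prkcq to 0.72 at Prkcd. The IgG-IP ratios ran from -0.16 at Prkca to 0.04 at Prkcd. With the median ratio of genes of like GC content subtracted, the H4K5ac ratio was 0.31 at Prkcq, 0.12 at Prkch, 0.07 at Prkcz, 0.06 at Prkca, 0.04 at Prkcb, 0.00 at Prkci, -0.02 at Prkce and -0.04 at Prkcd. Prkcq thus had the highest ratio in this comparison too. With the input ratio subtracted, Prkcq had a value above 0 (0.18) and the other 7 genes had values from -0.21 at Prkch to -0.63 at Prkcd. Past the size that counts as lower were 3 of 8, Prkcd, Prkcz (-0.48) and Prkce (-0.42), compared with 42.4% of all genes tested. The part of GC content in these differences was not tested.

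**Figure D2:**
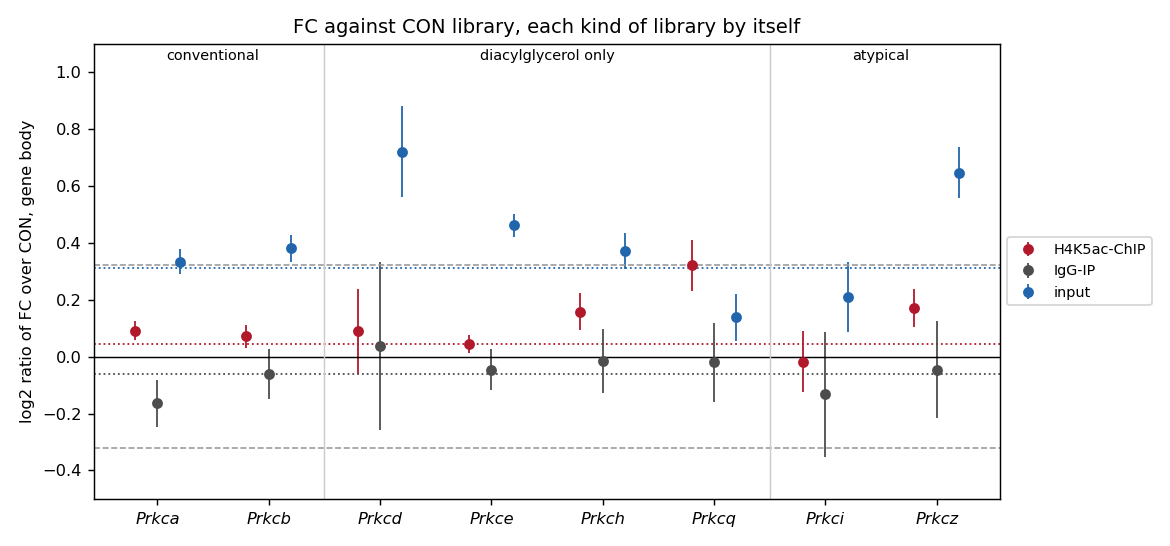
Log2 ratio of the FC over the CON library over each gene body (vertical axis), with H4K5ac-ChIP in red, IgG-IP in grey and input in blue, exact binomial 95% intervals as bars, medians of all genes tested as dotted lines and the log2 ratios of 0.322 and -0.322 as dashed lines. The input points reach 0.72 at Prkcd and 0.65 at Prkcz, and the highest H4K5ac-ChIP point is 0.32 at Prkcq.

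In windows of 5 kb, the genes held 360 windows with at least 40 H4K5ac-ChIP reads in both groups together. Of these, 5 were at least 1.5-fold higher in FC (2.54% of 215265 windows in all gene bodies) and 0 were lower (3.91%). The window with the largest fold lies at the TSS of Prkce (chr17:86565001-86570000), with 135 reads in FC and 98 in CON, 1.57-fold after scaling (log2 ratio 0.65, 0.26 to 1.04). Input differed more in the same window, with 127 and 48 reads and a log2 ratio of 1.04. Prkch had a pair of such windows, 176.7 kb (1.56-fold, 104 and 76 reads) and 56.7 kb (1.51-fold, 90 and 68 reads) from its TSS, where the input ratios were -0.14 and 0.12. Prkcd had 1 at 21.9 kb (1.54-fold, input ratio 0.80) and Prkcq 1 at 58.8 kb (1.52-fold, input ratio -0.14). The share of windows higher in FC was 1.39% over the 8 genes, compared with 2.54% of all windows, which were not matched to these in read count. Window by window, the median log2 ratio was highest in Prkcq, 0.28 over 27 windows, and lowest in Prkci, -0.06 over 13.

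The genes differed in how the mark lay along the gene body. With the gene body cut into 10 equal segments, numbered from the TSS towards its end (the transcription termination site, TTS), Prkce was the most even, with the densest segment 1.37 times the sparsest in FC and 1.27 times in CON. Prkca had its densest segment in the middle, with 1.37 RPKM in FC and 1.31 in CON, and its sparsest at the end, with 0.789 and 0.727. Prkcb had both its sparsest segment (0.691 and 0.651 RPKM in segment 8) and its densest (1.04 and 1.00 in segment 9) near the end. The input of Prkcb was also sparsest in segment 8, with 0.455 and 0.342 RPKM, and its densest segment had 1.46 and 1.45 times that density. Prkcq was densest in segment 1, with 0.750 RPKM in FC and 0.534 in CON, and sparsest in segment 8, with 0.385 and 0.310. Prkcz was the opposite, with its lowest density in segment 1, 0.591 RPKM in FC and 0.511 in CON, and its highest in segment 6, 1.57 and 1.34. The ratio between them, 2.66 in FC and 2.62 in CON, was the widest of the 8 genes. Of the controls of Prkcz, FC input and CON IgG-IP were also densest in segment 6, at 1.48 and 1.58 times their sparsest segment. FC IgG-IP (1.43 times) and CON input (1.36 times) were densest elsewhere.

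**Figure D3:**
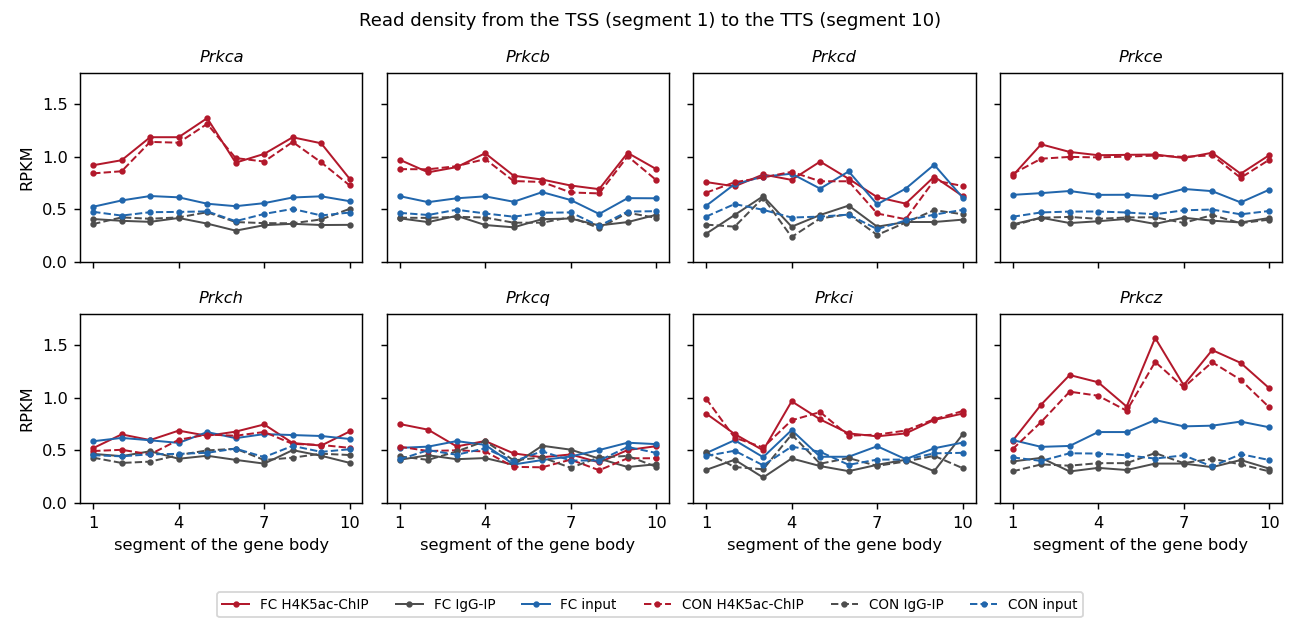
Read density (RPKM, vertical axis) in 10 equal segments of each gene body from the TSS to the TTS (horizontal axis), with H4K5ac-ChIP in red, IgG-IP in grey, input in blue, FC as solid and CON as dashed lines. Prkcz rises from 0.591 RPKM in segment 1 to 1.57 in segment 6 of the FC H4K5ac-ChIP library, while Prkcq starts highest in segment 1, at 0.750 RPKM in FC and 0.534 in CON.

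The densest 1 kb windows, 3 for each gene and picked by their H4K5ac density, lay in introns in 19 of 24 cases, upstream of the TSS in 4 and over an exon in 1. Of all 1794 windows searched, 88.6% were in introns, 2.23% upstream and 9.20% over exons. These shares pool the genes, so that long genes weigh more, while the 24 windows weigh each gene alike. The window chr11:108012243-108013242 in an intron 192.5 kb from the TSS of Prkca had 2.85 RPKM in FC and 1.89 in CON H4K5ac-ChIP, compared with 0.275 and 0.425 in IgG-IP (4 and 7 reads) and 0.987 and 0.735 in input. In Prkcz, the window chr4:154675471-154676470 at 59.5 kb had 2.18 and 2.03 RPKM, compared with 0.619 and 0.607 in IgG-IP and 0.745 and 0.311 in input. Prkcd was the exception, since its 3 densest windows lay upstream of the TSS, at 0.501, 3.50 and 4.50 kb.

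Against sequence without annotated genes within 50 kb on either side, 7 of 8 gene bodies were denser in H4K5ac-ChIP in both groups, as were 67.1% of protein-coding genes in FC and 66.7% in CON. With the same ratio of input subtracted, 7 were denser in FC (61.6%) and 6 in CON (64.6%). Prkce had a log2 ratio of gene body over flanks of 0.73 (0.65 to 0.81) in FC and 0.86 (0.78 to 0.94) in CON, or 0.53 and 0.79 less input. Prkcb had 0.63 and 0.61, Prkci 0.47 and 0.44, Prkca 0.44 and 0.56, and Prkch 0.30 and 0.24. The flanks of Prkca held only 18.3 kb without genes, and with flanks of 100 kb its ratios were 0.74 and 0.81 and those of Prkce 0.64 and 0.76, so that the order of the genes depended on the flank. For Prkcq the ratios, 0.31 and 0.19, were close to those of input, 0.21 and 0.19. Prkcz, the densest gene body, exceeded its flanks by only 0.12 (0.04 to 0.20) and 0.13 (0.05 to 0.21), or 0.03 and 0.13 less input, and the flanks themselves had 1.04 and 0.918 RPKM. Prkcd did not exceed its 50 kb flanks, with -0.06 (-0.19 to 0.08) and -0.10 (-0.23 to 0.03), but with flanks of 100 kb all 8 genes were denser than their flanks in FC.

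In the promoter, the 5 kb upstream of the TSS, Prkcd was the densest gene of the family. It had 0.918 RPKM (0.774 to 1.08) from 145 reads in FC and 0.834 (0.706 to 0.979) from 150 reads in CON H4K5ac-ChIP, compared with 0.440 and 0.267 in IgG-IP. Prkca had 0.829 and 0.740 RPKM, Prkcb 0.804 and 0.679, Prkce 0.797 and 0.606, and Prkci 0.652 and 0.740. At the low end were Prkcz with 0.468 and 0.395, Prkcq with 0.430 and 0.311, and Prkch with 0.392 and 0.456, all below the median of all genes, 0.481 in FC and 0.473 in CON. At least 2-fold over IgG-IP were 3 of 8 promoters in FC (Prkca, Prkcd and Prkce, 30.4% of all genes tested) and 2 of 8 in CON (Prkcd and Prkce, 24.5%). Over input these were 0 of 8 in FC (7.91%) and 2 of 8 in CON (Prkcd and Prkce, 16.1%). Prkcd reached a log2 ratio over IgG-IP of 1.06 (0.50 to 1.66) in FC and 1.64 (0.99 to 2.36) in CON, and Prkce 1.27 (0.63 to 1.97) and 1.12 (0.46 to 1.84). Relative to promoters of like GC content, whose median ratio was subtracted, Prkcd had -0.29 in FC and 0.54 in CON and Prkce 0.21 and 0.24, while Prkci was highest with 1.105 and 1.21.

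The promoters differed little between FC and CON at this depth. None reached 1.5-fold, with 0 of 8 higher in FC (5.52% of 34347 genes tested) and 0 of 8 lower (3.82%). Prkcq had the largest log2 ratio, 0.47 (-0.07 to 1.00) from 68 and 56 reads, with an input ratio of -0.05. Prkch had the lowest, -0.22 (-0.72 to 0.28) from 62 and 82, with an input ratio of 0.83. Prkce had 0.40 (0.01 to 0.78), with an input ratio of 0.73. In the other members the interval included 0, Prkcz (0.25, -0.24 to 0.74) and Prkcd (0.14, -0.20 to 0.48) among them, where the input ratios were 0.52 and 0.66. The calls depended on the control. With the IgG-IP ratio subtracted 2 promoters were higher (19.4% of all genes), Prkcz with 1.03 on 20 and 39 IgG-IP reads among them. Subtracting the input ratio gave 1 lower (18.3%).

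Within a library, the promoter of Prkcz was far less dense than its gene body. The ratio of promoter over gene body was 0.414 in FC (log2 ratio -1.27, -1.62 to -0.94) and 0.393 in CON (-1.35, -1.71 to -1.01). Only 1.84% of 18416 genes longer than 5 kb had a lower ratio in FC and 1.53% in CON. The other members ran from 0.623 (Prkch) to 1.248 (Prkcd) in FC and from 0.632 (Prkce) to 1.21 (Prkcd) in CON. Prkcd was the gene whose promoter was denser than its gene body in both groups.

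Close to the TSS, within 1 kb on either side, the order changed again. In FC, Prkcq had 0.997 RPKM (0.766 to 1.28), Prkcb 0.886, Prkcd 0.870, Prkci 0.839, Prkce 0.791, Prkca 0.712, Prkch 0.332 and Prkcz 0.190 (0.098 to 0.332). In CON, Prkci had 1.13 (0.894 to 1.40), Prkcd 0.723, Prkca 0.640, Prkcq 0.556, Prkcb 0.542, Prkcz 0.459 (0.316 to 0.644), Prkch 0.389 and Prkce 0.362. Prkcq, sparse over its gene body, was thus denser at its start than 83.3% of genes in FC and 57.0% in CON, and Prkch was low in both groups. The median over all genes was 0.522 in FC and 0.473 in CON.

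The widest differences between the libraries lay in these short stretches. At Prkce the H4K5ac-ChIP libraries held 50 FC and 26 CON reads (log2 ratio 1.13, 0.42 to 1.87), with input reads of 36 and 20 (0.48). Prkcq had 63 and 40 reads (0.84, 0.25 to 1.45), with input reads of 37 and 26 (0.14). Prkcb had 56 and 39 reads (0.71, 0.09 to 1.34), with input reads of 46 and 15, whose log2 ratio had an interval of 0.38 to 2.20. Prkcz went the other way, with 12 reads in FC and 33 in CON (-1.27, -2.36 to -0.28), a ratio below which lay only 0.563% of genes, while its input reads were 44 and 28. The interval of the input ratio excluded 0 at Prkcb and included it at Prkce (-0.35 to 1.35), Prkcq (-0.62 to 0.93) and Prkcz (-0.43 to 1.02). At Prkca, with input reads of 43 and 11, it excluded 0 too (1.60, 0.62 to 2.71). For Prkci (-0.43, -0.95 to 0.09), Prkch, Prkca and Prkcd the interval of the H4K5ac ratio included 0. At Prkce and Prkcb the result depended on the start that was centred. Prkce-003, 389 bp into the gene, had 42 and 35 reads (0.45, -0.23 to 1.14), with an input ratio of 0.84. At Prkcb-001, 546 bp into the gene, the ratio was 0.57 (-0.03 to 1.18), and at Prkcb-003 the interval included 0 too. At Prkcq-002, Prkcq-001 and Prkcz-003, also close to the gene TSS, it still excluded 0.

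The summit of H4K5ac-ChIP coverage within 5 kb of the TSS depended on how reads were counted. It lay within 2 kb of the TSS in 3 of 8 genes in FC (54.7% of protein-coding genes) and 6 of 8 in CON (53.4%), but in 5 (50.9%) and 4 (51.4%) as a ratio to input. With 1 read per position and strand it did so in 5 (56.0%) and 4 (53.6%), and with reads extended to 150 bp in 5 (55.7%) and 7 (54.5%). For Prkcq the FC and CON summits were at 550 and 650 bp, and at 2150 and 750 bp with 1 read per position and strand. In Prkcd it lay at -3250 and -750 bp, and at -750 bp in both with 1 read per position. In Prkci these values were 4150 and -250 bp, and -750 and -450 bp. Prkca had it at -1150 and -750 bp in both counts. The summit coverage of the 8 gene TSSs ranged from 0.388 to 0.982 in FC, with 0.408 to 0.956 in CON, as reads over a base per 10000000 reads of the library.

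**Figure D4:**
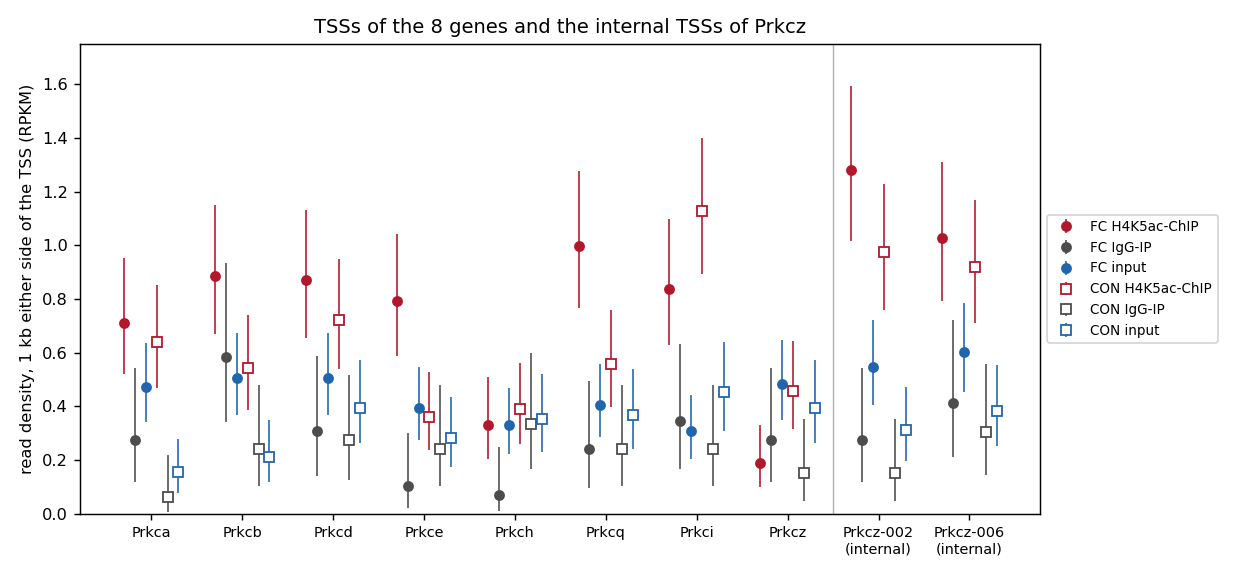
Read density within 1 kb of the TSS of each gene and of the internal TSSs of transcripts Prkcz-002 and Prkcz-006 (vertical axis, RPKM), 1 point per library (filled circles FC, open squares CON) with exact Poisson 95% intervals. H4K5ac-ChIP (red) at the gene TSS of Prkcz is 0.190 RPKM in FC and 0.459 in CON, and at its internal TSSs it lies between 0.918 and 1.28 RPKM.

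Inside Prkcz, H4K5ac was denser at the internal promoter than at the TSS of the full-length gene. The annotation gives internal TSSs of the transcripts Prkcz-002, Prkcz-004 and Prkcz-006 at 15.59, 15.98 and 16.20 kb, so that their 1 kb surroundings largely share reads. At Prkcz-006, the most downstream and the one chosen by the rule (position 154719274, 16.2 kb from the TSS of the gene), 65 H4K5ac-ChIP reads were counted in FC and 66 in CON, or 1.03 and 0.918 RPKM. IgG-IP had 12 and 10 reads and input 55 and 27. The density was higher than at 84.9% of all gene TSSs in FC and 85.2% in CON. The 85.0 kb of the gene after this start had 1.22 and 1.08 RPKM, so that the start did not stand out from the gene body that follows it. Set against IgG-IP, the log2 ratio came to 1.32 (0.42 to 2.34) in FC, with 1.60 (0.63 to 2.72) in CON, and over input 0.77 (0.23 to 1.32) and 1.27 (0.60 to 1.97). At Prkcz-002, the start with the CRE shown above, 81 and 70 reads gave 1.28 and 0.973 RPKM and log2 ratios over IgG-IP of 2.22 (1.17 to 3.48) and 2.68 (1.39 to 4.35).

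Set side by side in the same library, the internal TSS of Prkcz-006 had 5.42 times the H4K5ac-ChIP reads of the gene TSS in FC (log2 ratio 2.44, 1.54 to 3.46) and 2 times in CON (1.00, 0.38 to 1.65). In input the same log2 ratio came to 0.32 (-0.28 to 0.93) for FC, with -0.05 (-0.87 to 0.76) for CON, and IgG-IP held too few reads to compare (12 and 8 in FC, 10 and 5 in CON). The larger ratio in FC came with the low count at the gene TSS, while the internal TSS itself had a log2 ratio of FC over CON of 0.16 (-0.35 to 0.68), beside 0.66 (-0.03 to 1.38) in input.

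The density of Prkcz also differed before and after the internal TSS. The 16.2 kb of Prkcz before the internal TSS had a H4K5ac-ChIP density of 0.664 RPKM in FC and 0.604 in CON, and the 85.0 kb after it had 1.22 and 1.08. This is 1.84-fold in FC (log2 ratio 0.88, 0.72 to 1.04) and 1.79-fold in CON (0.84, 0.68 to 1.00). Input changed by 1.26-fold in FC (0.34, 0.19 to 0.49) and 1.06-fold in CON (0.08, -0.12 to 0.29), and IgG-IP by 0.844 and 1.16. Before the internal TSS, IgG-IP had 0.412 and 0.326 RPKM and input 0.552 and 0.410, so that H4K5ac-ChIP averaged above both controls there. This did not hold in FC close to the gene TSS. In segment 1 of the gene body H4K5ac-ChIP had 0.591 RPKM in FC and 0.511 in CON, beside 0.598 and 0.433 in input. Within 1 kb of the gene TSS it had 0.190 and 0.459, beside 0.482 and 0.396 in input. In windows of 2.5 kb, the 5 windows next to the TSS of the gene had at most 0.772 RPKM in FC and 0.567 in CON. The window from 12.5 to 15 kb had 0.772 and 0.934, and the 4 windows after it at least 1.11 and 0.845. In CON the density before the internal starts had thus already reached that of the windows after them. Upstream of the gene, the windows centred at -8.75 and -6.25 kb had 0.785 and 0.962 RPKM in FC and 0.934 and 0.667 in CON, so that the low stretch lay on both sides of the gene TSS.

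**Figure D5:**
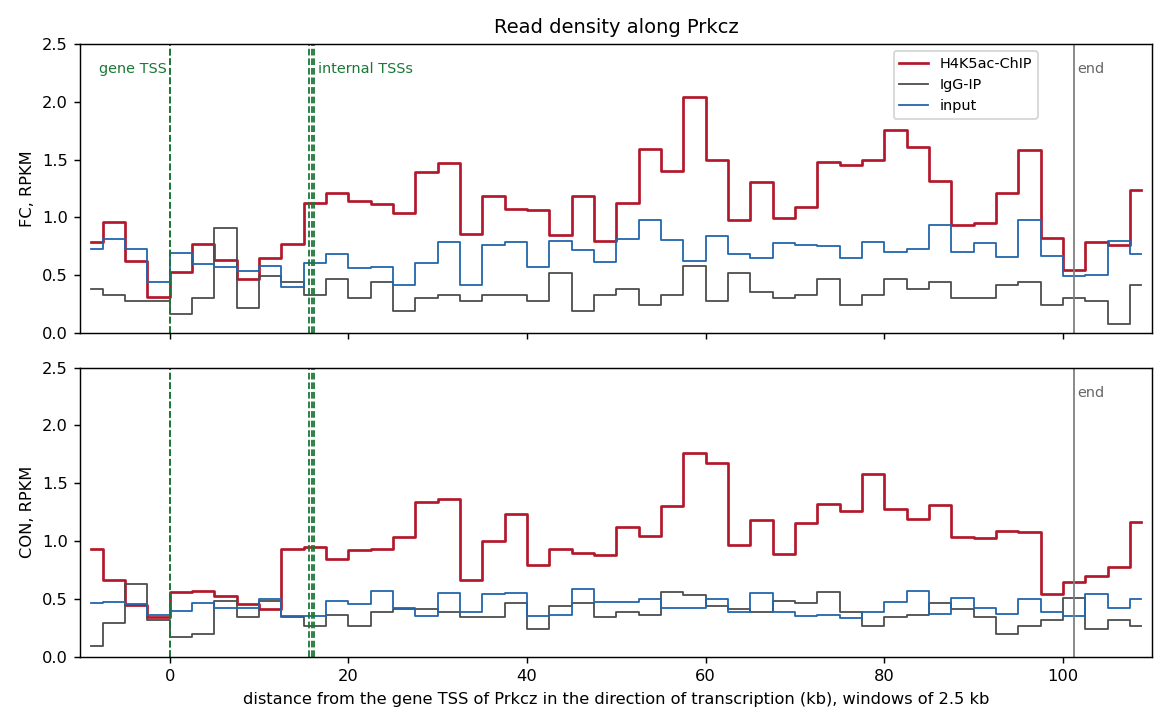
Read density along Prkcz in windows of 2.5 kb (vertical axis, RPKM, FC above and CON below) by distance from the gene TSS in kb, with H4K5ac-ChIP in red, IgG-IP in grey, input in blue, annotated TSSs as dashed green lines and the end of the gene as a grey line. H4K5ac-ChIP averages 0.664 RPKM in FC and 0.604 in CON before the internal TSS of Prkcz-006 and 1.22 and 1.08 RPKM over the 85.0 kb after it.

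The neighbours of these kinases in the pathway ranged from below IgG-IP to well above it. The list held 61 genes of families that make, remove or bind diacylglycerol, of related kinases, and of substrates, anchors or partners of protein kinase C. Of these, 24 were at least 2-fold over IgG-IP in FC (33.6% of all genes tested) and 16 in CON (25.4%). The median log2 ratios were 0.87 and 0.81, compared with 0.69 and 0.59 for all genes tested. Over input the order of the groups turned, with 1 in FC (5.03% of all genes tested) and 14 in CON (15.1%). In the phospholipase C family, whose enzymes make diacylglycerol, 5 of 14 were at least 2-fold over IgG-IP in FC and 3 in CON. The ratios ran from Plcg1 (log2 ratio 1.87 and 1.70) down to Plch1 (-0.38 and -0.21). These 14 include the phospholipase C-like genes Plcl1 and Plcl2, and Plcl1 (1.07 and 0.94) was among the 5. Among diacylglycerol kinases, which remove diacylglycerol, 4 of 10 did so in FC and 2 in CON, from Dgkz (2.01 and 1.86) to Dgkk (-1.34 and -1.28). Of the other proteins with a diacylglycerol-binding domain, 2 of 9 did so in FC and 1 in CON, with Unc13a, a factor of synaptic vesicle priming, highest in FC (1.08 and 0.83) and Unc13c lowest (-0.12 and -0.24).

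Substrates were the group with the highest median, 1.26 in FC and 1.11 in CON. Of 8 substrates 5 were at least 2-fold over IgG-IP in FC and 4 in CON, from Ppp1r14a, an inhibitor of myosin phosphatase (1.70 and 1.83), to Marcks (0.27 and 0.40), an actin-binding protein. Among related kinases, 3 of 8 did so in FC and 2 in CON, with Prkd1 lowest (0.23 and 0.53). Of the anchors, 2 of 5 did so in both groups, with the caveolar protein gene Prkcdbp highest (3.69, 2.09 to 5.99 in FC, on 84 and 3 reads, and 1.06 in CON) and Akap12, a scaffold protein, lowest (0.10 and 0.07). Of the partners of the atypical isoforms, 3 of 7 did so in FC and 2 in CON, from Pard6a (2.45, 1.34 to 3.81 in FC, on 83 and 7 reads, and 1.37 in CON) to Pard3b (-0.31 and -0.35). Between FC and CON, 6 of the 61 gene bodies were higher in FC by the measure used for the 8 genes (12.7% of all genes tested) and 1 was lower (5.69%), neither above the background.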

How the data were processed

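From FC and from CON hippocampus, 3 libraries each (H4K5ac-ChIP, IgG-IP, input) were measured by sequencing. The authors aligned the reads to mm9 and deposited each library as read positions with a mapping score from 4 to 100, and this deposited score was used only as a filter. Each line was counted as 1 read where it overlapped a region by at least 1 bp, with depth set by all lines of the library, and 11.5% to 17.8% of reads repeated a position and strand. Genes, transcripts and starts were those of the GENCODE annotation of mm9, and sequence was read from the mm9 genome. RPKM, log2 ratios and exact intervals were computed in Python 3.11.15 with NumPy 2.4.6, SciPy 1.17.1 and pandas 2.3.3, and were tested on simulated data. A pair of libraries needed 20 reads per gene or promoter and 40 per window. Shares for flanks and summits are over protein-coding genes with at least 20 reads and, for flanks, 10 kb without genes. The 8 genes and the lists were chosen with earlier results of these data known. All 8 genes were described, and of each pathway list the genes with the highest and lowest FC ratio over IgG-IP were named (1 is not reported here), as were the 5 windows with the largest fold. The study's methods describe several hippocampal samples per group, but each group and kind has 1 library, so no test was made. The alternatives were input as control, distinct reads, reads assigned by midpoint, a score of at least 20, other promoter and window sizes, and centring on the median, GC content, input or IgG-IP. A wider fold and protein-coding genes alone as the background were used as well.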

Additional observations from a re-analysis of the deposited data

Results flagged for a closer look

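In 7 cases the FC and CON log2 ratios lay on opposite sides of their control for the same gene. In none was the difference tested, since each group has 1 library of each kind. In each of the 7, the interval of at least 1 group reached both sides of the control, so opposite sides were not established. The cases were picked because they differed, among gene bodies, promoters and TSS surroundings with IgG-IP or input as control. No share of all genes is given for comparison. Over the gene body of Prkcq H4K5ac-ChIP exceeded IgG-IP by a log2 ratio of 0.33 (0.21 to 0.45) in FC, with -0.01 (-0.12 to 0.10) in CON. Its ratio over input reached 0.080 (-0.0001 to 0.16) in FC, with -0.10 (-0.19 to -0.01) in CON. The promoter of Prkcq had 0.061 (-0.58 to 0.73) over IgG-IP in FC and -0.64 (-1.25 to -0.02) in CON. The Prkcz promoter had 0.77 (0.04 to 1.56) over IgG-IP in FC and -0.26 (-0.84 to 0.34) in CON, where the IgG-IP library held 20 and 39 reads. At the Prkch promoter, H4K5ac-ChIP over input reached -0.67 (-1.12 to -0.23) in FC, with 0.38 (-0.11 to 0.88) in CON, with input reads of 142 and 62.

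Within 1 kb of the TSS of Prkcz the sides were exchanged. FC had -0.53 (-1.95 to 0.96) over IgG-IP and CON 1.60 (0.23 to 3.31), on 12 and 33 H4K5ac-ChIP reads. Over input FC had -1.35 (-2.40 to -0.40) and CON 0.21 (-0.56 to 0.99).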

How the results depend on the processing

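Of 98 summary counts and ratios over all alternatives, 70 stayed within 1.5 times or within their counting interval and 28 moved. Of 336 values of single genes, 81 moved, some of them with a change of sign. A wider fold and protein-coding genes alone as the background were among the alternatives. These could not move a value of the 8 genes, so that the numbers that stayed overstate stability. With the input ratio subtracted, the FC over CON ratio turned from 0.17 to -0.48 at the gene body of Prkcz and from 0.04 to -0.42 at that of Prkce. At the Prkcz promoter it was 0.25, but 1.03 with the IgG-IP ratio subtracted and -1.27 within 1 kb of the TSS, past the 1.5-fold line in opposite directions. With input as the control, 0 gene bodies and 0 promoters were 2-fold higher in FC and 1 gene of the pathway list was, compared with 3, 2 and 14 in CON. With the all-gene median subtracted, 0 gene bodies in FC and 0 in CON, 0 and 1 promoters (13.2% and 10.02% of all genes), and 5 and 3 pathway genes (8.73% and 5.596%) were. Within 1 kb of the TSS, 6 genes in each group were 2-fold over IgG-IP, beside 51.0% of all genes in FC and 42.1% in CON. Between FC and CON, 1 gene body reached the log2 ratio of 0.322 in FC with a score of at least 20 (13.1% of all genes), 1 with the IgG-IP ratio subtracted (24.4%), and 3 were lower with the input ratio subtracted (42.4%). For promoters at 1.5-fold, subtracting input gave 1 lower (18.3% of all genes) and subtracting IgG-IP 2 higher (19.4%), 2 kb promoters gave 1 higher (10.3%) and 1 lower (7.06%), and 1 kb on either side of the TSS gave 3 higher (14.1%) and 1 lower (5.93%). Windows higher in FC numbered 3 of 360 with distinct reads (1.804% of all windows), 0 of 183 at 10 kb (1.51%), 2 of 360 relative to windows of the same GC content (2.92%), and 53 of 873 at 2 kb (6.54% of all windows), where 12 were lower (8.67%). The summit lay within 2 kb of the TSS in 5 genes in FC and 7 in CON with reads extended to 150 bp, and in 5 and 4 as a ratio to input or, an alternative chosen after seeing the data, with 1 read per position and strand. Gene bodies denser than their 50 kb flanks numbered 7 in FC and 6 in CON with the input ratio subtracted. With flanks of 100 kb there were 8 in FC and no more than 7 in CON. Causes of these shifts were not tested, and 1 library of each kind limits every value to counting error. The Prkcz internal promoter stood at 0.77 to 1.88 over its control in FC and 1.27 to 2.34 in CON under all 5 alternatives for each group. No paired analysis was possible because each group has 1 library of each kind.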
